A study of Mus musculus with 8 samples.

Results

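The genes described here are the mitochondrial ribosomal protein genes of the mouse, taken as every row of the deposited expression table whose symbol starts with Mrpl or Mrps directly followed by a digit. That rule, which uses no measured value, gave 77 members among 16349 genes, of which 48 carry an Mrpl and 29 an Mrps symbol. All 77 passed the filter on low values (a normalised read count of at least 10 in at least 2 libraries), and 75 stood at 10 or above in all 8 libraries, Mrpl14 and Mrps16 being the exceptions. Each member was found in GENCODE M21, an annotation of GRCm38, and together they lie on 17 chromosomes.

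RNA was sequenced from 2 libraries in each of 4 groups of C57BL/6 mouse germ cells: elongating spermatids labelled Carm1 cKO, elongating spermatids labelled WT, round spermatids labelled cKO and round spermatids labelled WT. Round spermatids are the early haploid cells of spermatogenesis, and elongating spermatids are the later stage in which the nucleus condenses and the tail forms. CARM1 methylates arginines of histones and other proteins and is best known as a coactivator of transcription, and the comparisons ask how its conditional knockout and the step between the stages go with gene expression. Every sample was purified from 8 testes by centrifugal elutriation, so each is a pool of cells. No Cre driver, animal age or allele shared with the controls is given in the sources used here.

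Mitochondria keep their own ribosome, which translates the few proteins encoded in mitochondrial DNA, all of them parts of the respiratory chain and the ATP synthase. Its RNA is made inside the organelle, but each of its proteins is encoded in the nucleus, made in the cytosol and imported. Some of these proteins descend from bacterial ribosomal proteins, and others were added in the mitochondrial lineage. During spermiogenesis mitochondria are reshaped and lined up along the forming midpiece of the sperm tail, while much of the cytoplasm is shed. By known subunit and ancestry the members fall into 30 large-subunit proteins with a bacterial homologue, 20 large-subunit proteins specific to mitochondria (Mrps30 and Mrps18a among them, despite their symbols), 16 small-subunit proteins with a bacterial homologue, 10 small-subunit proteins specific to mitochondria, and Mrps36, now known as a component of the oxoglutarate dehydrogenase complex.

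The 8 libraries held between 17190962 and 23526694 reads on the genes of the table. Carm1 itself had 1174 and 1343 normalised read counts in round KO-labelled cells, against 1649 and 1686 in round WT cells (log2 fold change -0.41, SE 0.05, adjusted p = 3.8e-05). In elongating spermatids it had 8157 and 7993 in KO-labelled cells, against 4308 and 4534 in WT cells (log2 fold change 0.87, SE 0.05, adjusted p = 2.7e-09), which goes against the label, and these libraries are therefore called KO-labelled throughout. The 7 elongating spermatid markers summed to between 4759982 and 4909137 in elongating KO-labelled, 2809958 and 2819237 in elongating WT, 148290 and 156530 in round KO-labelled, and 135124 and 138694 in round WT libraries. None of these 7 was at 0, and all 7 were higher in elongating WT than in round WT cells, by 3.49 to 4.94 on the log2 scale. Of 7 round spermatid markers, 3 rose and 4 fell in elongating WT against round WT cells. The 50 most abundant genes took 31.9 to 34.9% of reads in elongating libraries and 10.1 to 10.3% in round libraries. For this reason the scaling of libraries matters for every comparison that involves elongating cells. In such bulk samples a smaller number of cells of a type and less RNA per cell cannot be told apart.

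The promoters of the genes that the results turn on, and of the 2 that carry a full cyclic-AMP response element, are shown here so that the values can be read beside the sequence. CREM, the activator of many haploid germ cell genes, binds that element, and CARM1 is named with CREM in the title of the study. Of the 77 members, 68 matched the RefSeq promoter table (GRCm38.p6), from which the 250 bases before the start site were searched on both strands, along with those of 17492 protein-coding genes. These start sites can differ from the gene ends in GENCODE M21. By that annotation the windows shown for Mrpl47, Mrpl51 and Mrpl39 lie inside the gene. Each line gives the coding strand, 5′ to 3′, in lower case, with matches to the motifs named below in capitals.

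Mrps27, chr13:99344536-99344785, plus strand: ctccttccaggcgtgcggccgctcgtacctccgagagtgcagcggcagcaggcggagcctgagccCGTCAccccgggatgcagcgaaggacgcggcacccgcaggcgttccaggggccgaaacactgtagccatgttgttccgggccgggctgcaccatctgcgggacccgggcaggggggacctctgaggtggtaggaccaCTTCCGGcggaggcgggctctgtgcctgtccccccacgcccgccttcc
Mrpl47, chr3:32736756-32737005, minus strand: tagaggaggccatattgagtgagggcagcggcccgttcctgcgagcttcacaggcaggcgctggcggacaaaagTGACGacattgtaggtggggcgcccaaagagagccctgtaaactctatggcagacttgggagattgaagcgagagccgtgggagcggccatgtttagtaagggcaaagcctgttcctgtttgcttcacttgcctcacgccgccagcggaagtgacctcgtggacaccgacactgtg
Mrpl51, chr6:125191950-125192199, plus strand: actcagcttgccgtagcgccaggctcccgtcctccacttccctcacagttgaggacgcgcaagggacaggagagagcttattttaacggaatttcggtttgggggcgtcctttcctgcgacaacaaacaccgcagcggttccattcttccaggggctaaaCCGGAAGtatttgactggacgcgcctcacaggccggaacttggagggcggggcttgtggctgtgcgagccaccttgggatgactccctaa
Mrpl39, chr16:84735245-84735494, minus strand: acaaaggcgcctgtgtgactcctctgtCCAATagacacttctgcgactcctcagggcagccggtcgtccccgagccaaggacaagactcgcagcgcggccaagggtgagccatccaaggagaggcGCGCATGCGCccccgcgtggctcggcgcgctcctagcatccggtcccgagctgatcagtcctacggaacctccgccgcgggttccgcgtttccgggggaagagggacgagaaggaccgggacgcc
Mrpl16, chr19:11770165-11770414, plus strand: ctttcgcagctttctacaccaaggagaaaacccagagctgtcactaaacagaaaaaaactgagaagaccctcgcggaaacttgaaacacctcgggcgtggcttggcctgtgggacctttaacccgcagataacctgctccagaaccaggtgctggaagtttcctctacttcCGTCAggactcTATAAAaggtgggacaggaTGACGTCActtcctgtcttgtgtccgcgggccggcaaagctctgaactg
Mrpl49, chr19:6057756-6058005, minus strand: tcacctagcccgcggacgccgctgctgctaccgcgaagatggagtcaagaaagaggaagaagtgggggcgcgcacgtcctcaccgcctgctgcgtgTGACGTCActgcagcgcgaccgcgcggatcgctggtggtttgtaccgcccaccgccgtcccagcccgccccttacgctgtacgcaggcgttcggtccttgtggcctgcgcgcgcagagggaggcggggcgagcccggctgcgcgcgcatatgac

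The full CRE, TGACGTCA, stood in 2 of 68 member promoters (2.9%), those of Mrpl16 and Mrpl49, against 2.2% of all promoters of the same length. Its half-site TGACG, which the full element contains, stood in 24 (35.3%, against 22.6%), including Mrps27 on the opposite strand and Mrpl47. The NRF1 site, GCGCA followed directly by its reverse complement and bound by a known activator of nuclear genes for mitochondrial proteins, was present in 3 members, Mrpl39, Mrpl32 and Mrpl9 (4.4%, against 1.2%). An ETS core, CCGGAAG, was present in 17 (25.0%, against 10.2%), Mrps27 and Mrpl51 among them, and the YY1 site AAGATGGCG in Mrpl36 and Mrps11 (2.9%, against 0.8%). CCAAT was found in 25 members (36.8%, against 39.5%) and TATAAA in 5 (7.4%, against 13.7%). In the elongating KO comparison described below, 27.3% of all genes tested rose and 27.7% fell. Calls were not counted over all genes with each motif. Among members, 3 of 17 rose and 3 fell with the ETS core, against 9 and 15 of 51 without it. With CCAAT 2 of 25 rose and 9 fell, against 10 and 9 of 43 without it, and both members with the YY1 site fell. The other motifs gave 1 rise and 2 falls of 3 members for NRF1, no call by limma in the 2 with the full CRE, 4 rises and 7 falls of 24 for its half-site, and 2 falls of 5 for TATAAA. These matches are a description of the letters in the windows, and differences in calls between members with and without a motif were not tested.

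Levels were compared between genes only per length, as the mean normalised read count per kilobase of annotated exon. The members spanned a wide range, and their median lay above that of all genes with a known length in every group. The member median was 51.9 in elongating KO-labelled, 61.0 in elongating WT, 83.5 in round KO-labelled and 86.4 in round WT cells, where the medians of 15700 genes were 23.6, 26.1, 25.9 and 27.1. The number of members above the median of all genes was 49, 52, 55 and 59 of 77 in the same order of groups. The spread among members was wider in elongating cells: the SD of log2 level per kilobase over members was 2.22 in elongating KO-labelled and 1.93 in elongating WT cells, against 1.79 in round KO-labelled and 1.72 in round WT cells. The median member had 50 to 84 reads in elongating libraries and 261 to 297 in round libraries, and fewer reads add counting noise to such a spread. How much they added was not tested, and the SD over all genes was not computed.

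**Figure D1:**
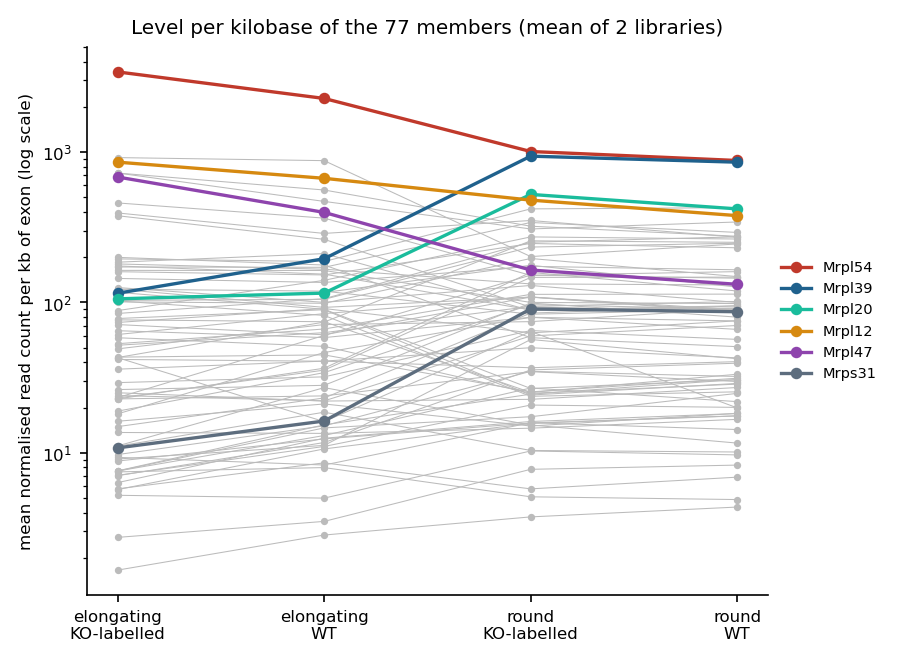
Mean normalised read count per kilobase of exon (log axis) of each of the 77 members in the 4 groups, with the points of a member joined by a line and a few members in colour. The points spread more widely in the elongating groups, where Mrpl54 stands at the top with 3415 in KO-labelled and 2275 in WT cells.

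In round WT cells the highest levels per kilobase were those of Mrpl54 (879.6), a mitochondria-specific large-subunit protein, Mrpl39 (857), whose protein resembles an aminoacyl-tRNA synthetase, and Mrpl41 (427), a mitochondria-specific large-subunit protein. Mrpl20 (419), needed early in assembly of the large subunit in bacteria, and Mrpl12 (378), which forms the flexible stalk that binds translation factors, came next. Mrpl54 was measured at 899 and 859.9 per kilobase in the 2 round WT libraries and Mrpl39 at 857 in both, so these neighbours did not differ beyond the spread of Mrpl54. The values of Mrpl41 (413 and 441) overlapped those of Mrpl20 (414 and 425). The lowest levels per kilobase were those of Mrps35 (4.36), Mrpl23 (4.89), Mrpl19 (6.89), Mrpl33 (8.29) and Mrps10 (9.69). These 5 have long annotated exons, of 4883 to 8631 bases in all, and the ranking depends on that length. Without division by length their mean normalised read counts in round WT cells were 23.9 to 78.3. Mrpl14 (9.61) and Mrps24 (17.0) then stood lower. Mrps35 is a mitochondria-specific small-subunit protein and the others have bacterial homologues. Mrpl23 has an identical processed pseudogene over 540 bases and Mrps10 one with 97.9% identity, and reads of such pairs may be split or lost in counting.

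Members, like most genes, took a smaller share of reads in elongating cells, and within them a smaller share in KO-labelled than in WT cells. The share was 0.0557% (95% Wilson interval 0.0548 to 0.0567) and 0.0546% (0.0536 to 0.0555) in elongating KO-labelled libraries, and 0.0696% (0.0685 to 0.0706) and 0.0682% (0.0671 to 0.0693) in elongating WT libraries. Round KO-labelled libraries gave 0.187% (0.185 to 0.189) and 0.186% (0.185 to 0.188), and round WT libraries 0.184% (0.182 to 0.186) and 0.185% (0.183 to 0.187). Groups did not overlap in elongating cells, and the intervals, which cover counting error only, overlapped between the round groups. On the scale of the authors' size factors the order turned round in elongating cells. The summed normalised read count was 25204 and 24202 in elongating KO-labelled libraries, against 20993 and 20738 in elongating WT libraries. In round cells it was 21805 and 21763 in KO-labelled libraries, against 20131 and 20279 in WT libraries. The smaller read share is not particular to the members. Under total-count scaling, 68.8% of all genes fell in elongating WT against round WT cells, with a median of -1.42. In elongating KO-labelled against WT cells 62.8% of all genes fell under that scaling, with a median of -0.61.

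A few members carried the summed normalised read count in elongating cells. Mrpl47, Mrpl51 and Mrpl54 together made up 36.2% and 34.8% of the summed count in elongating KO-labelled libraries and 26.9% and 26.1% in elongating WT libraries, but 12.7 to 13.4% in the 4 round libraries. Without those 3, which were picked after their values were seen, the sum was 16080 and 15783 in elongating KO-labelled libraries and 15346 and 15320 in elongating WT libraries. It was 18951 and 19005 in round KO-labelled libraries and 17434 and 17584 in round WT libraries. Mrpl39 showed the opposite pattern, with 1.18% of the sum in both elongating KO-labelled libraries and 2.35% and 2.40% in elongating WT libraries, against 10.7 to 11.0% in the 4 round libraries. Depth per member was lower in elongating cells: the median member had 54 and 50 reads in elongating KO-labelled, 84 and 84 in elongating WT, 285 and 297 in round KO-labelled and 261 and 277 in round WT libraries. Members under 20 reads numbered 16 and 18 in elongating KO-labelled and 6 and 9 in elongating WT libraries, against 1 in every round library.

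**Figure D2:**
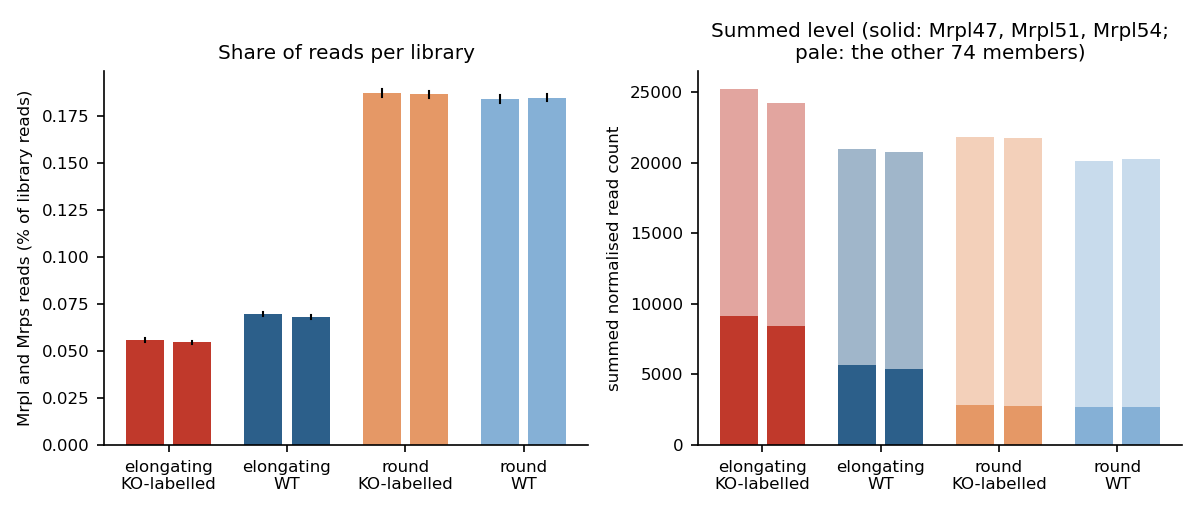
Left, reads of the 77 members as a percentage of all reads in each library, with 95% Wilson intervals. Right, their summed normalised read count, with the part of Mrpl47, Mrpl51 and Mrpl54 solid and the other 74 members pale. The read share is lowest in elongating KO-labelled libraries (0.0546 to 0.0557%), where the 3 genes make up 34.8 to 36.2% of the summed count. Under total-count scaling 62.8% of all genes are also called lower there than in elongating WT libraries.

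In elongating spermatids, under the authors' scaling, most members called higher in KO-labelled cells were abundant ones, and most called lower were scarce ones. By limma on log2(value + 1), with Benjamini-Hochberg adjustment over all 15685 genes tested, 13 of 77 members rose, 22 fell and 42 did not pass an adjusted p of 0.05. Of all genes tested, 27.3% rose and 27.7% fell, beside 16.9% and 28.6% of the members. The shares are thus near those of all genes for falls and below them for rises, and the median member change of -0.11 lay beside a median of -0.07 over all genes. Members were split at the median of their mean level over all 8 libraries, those compared here included. The 39 members at or above it gave 12 rises (30.8%) and 6 falls (15.4%), and the 38 below it gave 1 rise (2.63%) and 16 falls (42.1%). Over all genes split at the same level, 43.8% of those above rose and 31.7% fell, and 13.5% of those below rose and 24.4% fell. Rises were thus more frequent at higher levels among all genes too, and abundant members rose and fell less often than all genes at their level. Scarce members rose less often and fell more often, which was not tested.

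By role, 10 of 50 large-subunit members rose and 10 fell (median -0.09), whereas 3 of 26 small-subunit members rose and 12 fell (median -0.32), a difference between the subunits that was not tested. The 16 small-subunit proteins with a bacterial homologue held 1 rise and 8 falls, and the 10 small-subunit proteins specific to mitochondria 2 rises and 4 falls. Among large-subunit proteins those with a bacterial homologue gave 5 rises and 7 falls of 30, and those specific to mitochondria 5 rises and 3 falls of 20. Of the 13 rises only those of Mrps27 and Mrpl47 were also called under total-count scaling, where 9 changed sign and 5 of these were called lower (Mrpl12, Mrpl35, Mrpl55, Mrps15 and Mrps18a). Scaled in that way, 2 members rose and 63 fell (8.89% and 62.8% of all genes), because that scaling moves the median of all genes from -0.07 to -0.61 on the log2 scale. The median member change minus the median over all genes was -0.04 under the authors' scaling and -0.03 under total-count scaling.

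**Figure D3:**
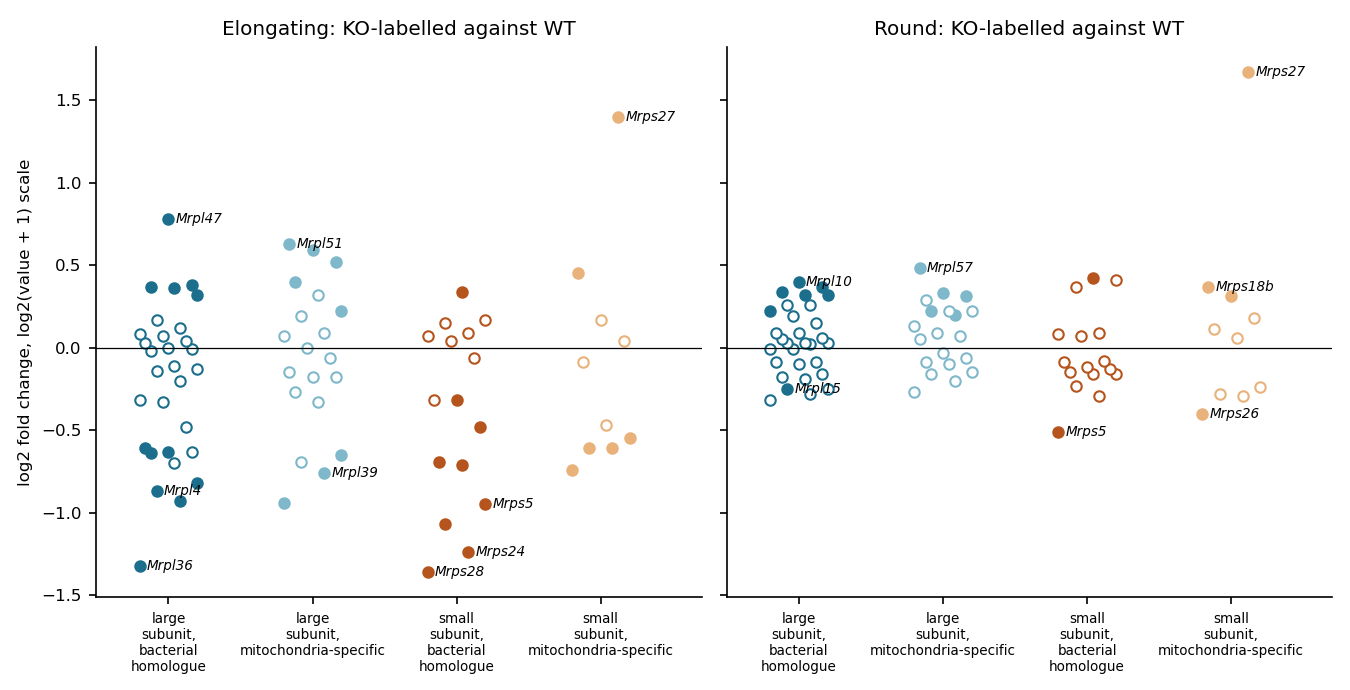
Log2 fold change of KO-labelled against WT, on the log2(value + 1) scale with the authors' size factors, in elongating (left) and round (right) spermatids for the 76 structural members, by subunit and ancestry, with Mrps36 left out. Filled points passed an adjusted p of 0.05. Mrps27 is the highest point in both panels, at 1.40 and 1.67, and total-count scaling leaves only Mrps27 and Mrpl47 as rises in the left panel.

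Mrps27 encodes a pentatricopeptide-repeat protein of the small subunit. It had normalised read counts of 93.1 and 86.7 in elongating KO-labelled libraries (48 and 46 reads), against 38.7 and 28.8 in elongating WT libraries (30 and 20 reads). Both KO-labelled values were far above both WT values (log2 fold change 1.40, SE 0.19, adjusted p = 1.9e-05). The call was kept under every alternative run. On chromosome 13 (99344786 to 99415562) the gene shares 24.2% of its exon bases with 6430562O15Rik on the opposite strand, and the library kit does not mark strand.

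Mrpl47, a homologue of a bacterial protein that sits by the exit of the nascent chain, had 3231 and 2805 in elongating KO-labelled libraries, against 1765 and 1746 in elongating WT libraries. The groups were far apart (log2 fold change 0.78, SE 0.06, adjusted p = 6.5e-08), and it too stayed called under every alternative. Its exons share bases with Ndufb5 (13.9%) and Actl6a (10.2%) on the opposite strand. Mrpl51, a mitochondria-specific large-subunit protein, had 2969 and 2903 in elongating KO-labelled libraries, against 2033 and 1768 in elongating WT libraries (0.63, SE 0.06, adjusted p = 5.7e-07). A processed pseudogene matches it at 98.5% over 387 bases. Mrpl54 had 2925 and 2711 in elongating KO-labelled libraries, against 1849.9 and 1903 in elongating WT libraries (0.59, SE 0.05, adjusted p = 1.5e-07). For both Mrpl51 and Mrpl54 the KO-labelled values all lay above the WT values, yet neither was called under total-count scaling or under scaling without the 50 most abundant genes.

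The next rises in size were those of Mrpl40 (0.52), Mrps18b (0.45), Mrpl37 (0.40) and Mrpl55 (0.38), with adjusted p from 4.6e-05 to 0.0014. Mrpl40 and Mrpl37 are mitochondria-specific proteins of the large subunit, Mrps18b is 1 of 3 mitochondrial copies related to a single bacterial small-subunit protein, and Mrpl55 is a large-subunit protein. Mrpl40 measured 630.3 and 699 in elongating KO-labelled libraries, against 432 and 495 in elongating WT libraries. Mrps18b measured 871 and 775 in KO-labelled libraries, against 605 and 598 in WT libraries. In each of the 4 genes the groups did not overlap, and under total-count scaling each of the 4 changed sign, to between -0.04 and -0.19.

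The falls were largest in scarce members. Mrps28, a small-subunit protein, had 23.3 and 13.2 in elongating KO-labelled libraries (12 and 7 reads), against 54.1 and 40.4 in elongating WT libraries (42 and 28 reads), a log2 change of -1.36 (SE 0.25, adjusted p = 2.7e-04). Mrpl36, the homologue of the smallest bacterial ribosomal protein, had 25.2 and 17.0 in KO-labelled libraries, against 63.2 and 44.7 in WT libraries (-1.32, SE 0.23, adjusted p = 1.8e-04). Mrps24, a small-subunit protein, had 19.4 and 13.2 in KO-labelled libraries, against 46.4 and 33.2 in WT libraries (-1.24, SE 0.32, adjusted p = 0.004). In these 3 genes every WT value was above every KO-labelled value, although the KO-labelled values rest on 7 to 13 reads each, and Mrps24 shares 15.4% of its exon bases with Urgcp on the same strand.

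Mrps5, which in bacteria belongs to the part of the ribosome that keeps decoding accurate, had 58.2 and 41.5 in elongating KO-labelled libraries, against 102 and 90.8 in elongating WT libraries (-0.95, SE 0.17, adjusted p = 1.8e-04). Mrpl4, whose bacterial homologue lines the exit tunnel, had 38.8 and 60.3 in KO-labelled libraries, against 85.1 and 93.7 in WT libraries (-0.87, SE 0.17, adjusted p = 5.4e-04). Mrpl39, the member with the highest normalised read count in round cells, had 299 and 285 in KO-labelled libraries, against 492 and 498 in WT libraries (-0.76, SE 0.05, adjusted p = 8.0e-09). The falls of Mrps28, Mrpl36, Mrps24, Mrps5, Mrpl4 and Mrpl39 were called under every alternative run. Those of Mrps16 (-1.07), Mrpl50 (-0.94) and Mrpl21 (-0.93) were lost with DESeq2, when only the 4 elongating libraries were fitted, and without elongating WT replicate 1. Mrps16 had 25.2 and 7.54 in KO-labelled libraries, against 32.2 and 28.8 in WT libraries, so that its groups did not overlap but 1 KO-labelled value stood close to WT. The falls of Mrps16 and Mrpl50 were also lost without elongating KO replicate 2, and that of Mrps16 without elongating WT replicate 2. With DESeq2, 12 members fell in place of 22.

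Other cell types moved with the same contrast. All 7 macrophage markers fell, and their summed level was 1745 and 1823 in elongating KO-labelled libraries, against 4219 and 4198 in elongating WT libraries, with none of them at 0. Of 7 Sertoli cell markers used, 5 fell, with summed levels of 3980 and 4031 in elongating KO-labelled libraries, against 5542 and 5618 in elongating WT libraries, and Fshr was at 0 in at least 1 library of the series. Of 8 spermatocyte markers 5 fell and 1 rose, with sums of 1645 and 1672 in elongating KO-labelled libraries, against 2146 and 2268 in elongating WT libraries. Peritubular and vascular markers went the other way by their sum, with 1982 and 1964 in elongating KO-labelled libraries, against 1201 and 1169 in elongating WT libraries, and 3 of 7 rose and 2 fell. The 3 Leydig cell markers used summed to 118 and 102 in elongating KO-labelled libraries, against 74.8 and 51.9 in elongating WT libraries, and none of them was called by limma. All 7 elongating spermatid markers rose, with a median of 0.81. Of 7 round spermatid markers 3 rose and 4 fell (-1.42 to 1.03), and of 6 spermatogonia markers 1 rose and 3 fell (-2.23 to 0.54 over the 6). The part of these cell types and stages in the changes of the mitochondrial ribosomal protein genes was not tested.

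**Figure D4:**
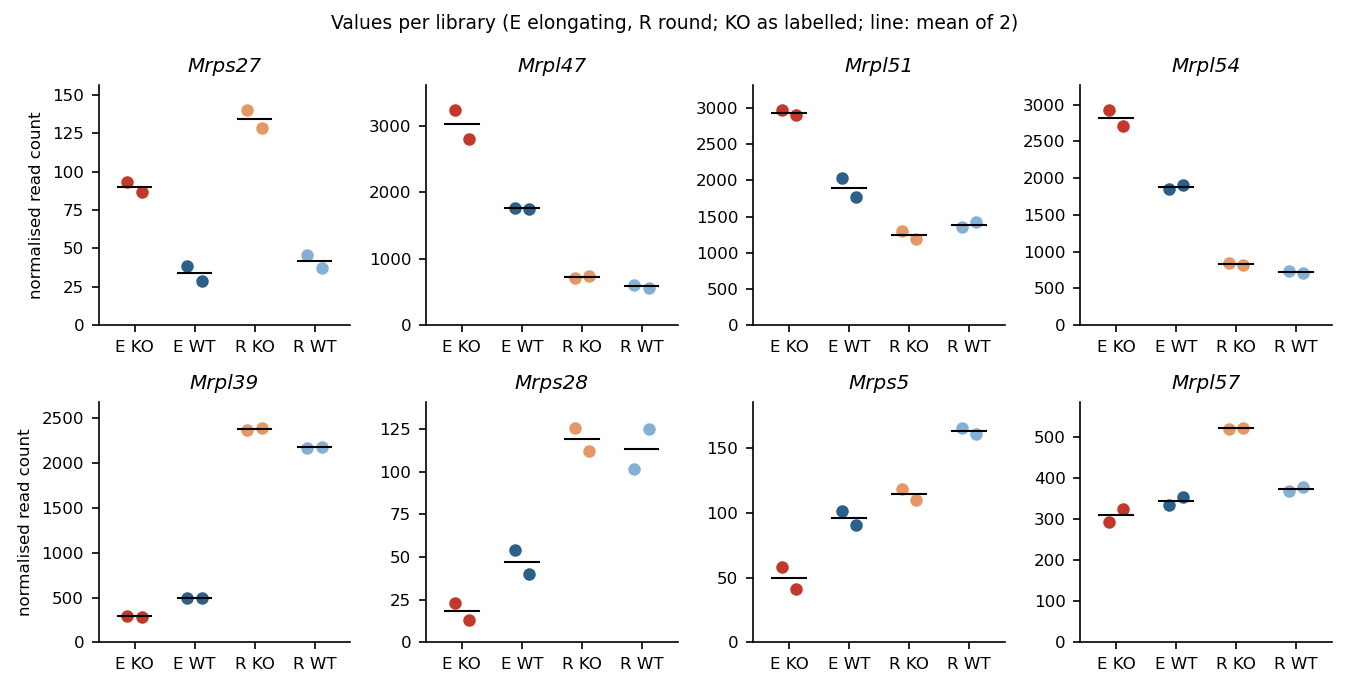
Normalised read count of 8 members in each of the 8 libraries (E elongating, R round, KO as labelled), with a line at the mean of 2; each panel has its own axis from 0. Mrps27 is higher in KO-labelled cells at both stages, Mrpl39 is lower in elongating KO-labelled cells, and Mrpl57 is higher in round KO-labelled cells.

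In round spermatids, where members were measured with several times the reads, the KO-labelled cells differed from WT by modest changes outside Mrps27, most of those called being rises. Of 77 members 15 rose, 4 fell and 58 did not pass. All genes tested gave 19.4% rises and 12.6% falls, beside 19.5% rises and 5.19% falls among the members, and the median change was 0.03 for both members and all genes. Of the 15 rises, 14 were among the 39 members at or above the median mean level (35.9%). The other was among the 38 below it (2.63%). Over all genes split at the same level, 32.1% of those above and 8.77% of those below rose, so rises were more frequent at higher levels among all genes too. Large-subunit members held 11 rises and 1 fall of 50, and small-subunit members 4 rises and 2 falls of 26. These counts rest on few libraries: without round KO replicate 1 there were 8 rises and 3 falls, without round KO replicate 2 8 rises and 1 fall, without round WT replicate 1 9 rises and 2 falls, and without round WT replicate 2 7 rises and 1 fall. Under total-count scaling 9 rose and 7 fell. The falls numbered 9 with edgeR on the deposited size factors, 8 with edgeR and TMM and 8 when only the 4 round libraries were fitted, where 18, 19 and 18 members rose.

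Mrps27 again changed most, with 139.9 and 128 in round KO-labelled libraries (220 and 228 reads), against 45.8 and 37.5 in round WT libraries (72 and 62 reads). All KO-labelled values were well above all WT values (1.67, SE 0.19, adjusted p = 1.1e-05). Mrpl57, a mitochondria-specific large-subunit protein, had 521 and 524 in round KO-labelled libraries, against 369 and 379.5 in round WT libraries (0.48, SE 0.08, adjusted p = 2.2e-04). Mrpl35, a large-subunit protein with a bacterial homologue, had 546 and 536 in KO-labelled libraries, against 417 in both WT libraries (0.37, SE 0.07, adjusted p = 9.3e-04). Each of these groups was tight beside the difference. Mrps18b had 714 and 752 in KO-labelled libraries, against 552 and 583 in WT libraries (0.37, SE 0.07, adjusted p = 6.8e-04). Mrpl12 had 705 and 765 in KO-labelled libraries, against 569 and 589.5 in WT libraries (0.34, SE 0.06, adjusted p = 5.7e-04). The rises of Mrps27, Mrpl57, Mrpl35, Mrps18b, Mrpl12 and Mrpl47 (0.32) were called under every alternative run.

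Mrps9 (0.42), Mrpl10 (0.40) and Mrpl37 (0.33) also rose. Mrpl10 anchors the stalk formed by Mrpl12 and had 327 and 343 in round KO-labelled libraries, against 258 and 249 in round WT libraries. Mrps9, a small-subunit protein with a bacterial homologue, had 335 and 319 in KO-labelled libraries, against 248 and 239.7 in WT libraries. Its adjusted p was 0.05 after rounding and just under the threshold. The groups did not overlap, but leaving out any 1 of the 4 round libraries ended the calls of Mrps9 and Mrpl10, that of Mrps9 also ended without elongating WT replicate 1 or 2, and that of Mrpl37 ended without round KO replicate 2 or round WT replicate 2.

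The 4 falls were those of Mrps5, Mrps26, Mrps36 and Mrpl15. Mrps5 had 119 and 109.9 in round KO-labelled libraries, against 166 and 161 in round WT libraries (-0.51, SE 0.17, adjusted p = 0.028). Mrps26, a mitochondria-specific small-subunit protein, had 120.2 and 99.7 in KO-labelled libraries, against 148 and 143 in WT libraries (-0.40, SE 0.13, adjusted p = 0.025). Mrps36 had 249 and 265 in KO-labelled libraries, against 307 and 318 in WT libraries (-0.28, SE 0.06, adjusted p = 0.0038). Of the 4, only the fall of Mrps36 was called under every alternative. That of Mrps5 ended without any 1 of the round libraries, that of Mrps26 without round KO replicate 2, round WT replicate 1 or round WT replicate 2, and that of Mrpl15 (-0.25) without round KO replicate 1, round KO replicate 2, round WT replicate 2 or either elongating WT library.

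Markers of other cell types moved in round cells as well. Of 7 Sertoli cell markers 4 fell, with sums of 149 and 167 in round KO-labelled libraries, against 245 and 255 in round WT libraries. Macrophage markers gave 3 rises of 7 and sums of 169 and 154 in KO-labelled libraries, against 111 and 141 in WT libraries. Spermatocyte markers gave 5 falls and 1 rise of 8, with sums of 7472 and 7338 in KO-labelled libraries, against 8239 and 8438 in WT libraries. Peritubular and vascular markers gave 2 rises and 1 fall of 7, and none of the 3 Leydig cell markers used was called by limma. Spermatogonia markers gave 2 rises of 6 and no fall by limma. Of 7 elongating spermatid markers 6 rose (median 0.13), and of 7 round spermatid markers 2 rose and 1 fell. The part of these cell types and stages in the round results was not tested either.

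Across the stages, 9 members rose in both knockout comparisons: Mrpl12, Mrpl35, Mrpl37, Mrpl47, Mrpl54, Mrpl55, Mrps18a, Mrps18b and Mrps27. They are 69.2% of the elongating rises and 60.0% of the round rises under the authors' scaling, and only Mrps27 and Mrpl47 of them rose in both under total-count scaling. Of these rises, that of Mrps18a in elongating cells (0.22, adjusted p = 0.047) was lost without any 1 library except elongating KO replicate 2. In round cells Mrps18a was lost without any 1 round library, Mrpl55 without round KO replicate 1, round KO replicate 2 or round WT replicate 2, and Mrpl54 without round KO replicate 1 or round WT replicate 2. Mrps5 fell in both, and no member was called in opposite directions. Another 21 members fell in elongating cells without a call in round cells, and 33 had no call in either. The overlap of calls between the stages was not computed over all genes. Whether the members differ from other genes in it is therefore not known.

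The test of the difference itself, elongating minus round knockout effect, called 8 members higher and 16 lower (19.3% and 17.5% of all genes tested). The median difference was -0.19 over members and -0.04 over all genes. Leaving out round WT replicate 1 or round WT replicate 2 left 10 lower, and leaving out elongating WT replicate 1 left 5 higher. Mrpl51 differed by 0.79 (SE 0.09, adjusted p = 4.9e-06): beside the elongating values above it had 1299.8 and 1193 in round KO-labelled libraries, against 1352 and 1422 in round WT libraries. The WT values were the higher ones in round cells and the lower ones in elongating cells, and this was the 1 positive difference that stayed called under total-count scaling. Mrpl57 differed the other way, by -0.64 (SE 0.11, adjusted p = 2.7e-04), with 295 and 324 in elongating KO-labelled libraries, against 334 and 355 in elongating WT libraries. Mrpl39 differed by -0.89 (SE 0.07, adjusted p = 2.0e-07), and in round cells it had 2369 and 2393 in KO-labelled libraries, against 2170.4 and 2172 in WT libraries. Mrps27 differed by -0.27 (SE 0.27, adjusted p = 0.48), which leaves a wide range of differences possible.

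The step from round to elongating spermatids went with larger changes than the knockout label. In elongating WT against round WT cells 22 members rose, 36 fell and 19 did not pass, beside 41.7% rises and 40.2% falls over all genes. The members' 28.6% of rises was below and their 46.8% of falls above these shares, and their median change was -0.35, against 0.01 over all genes. Small-subunit proteins with a bacterial homologue had 4 rises and 10 falls of 16 (median -0.74), and small-subunit proteins specific to mitochondria 2 rises and 3 falls of 10 (-0.33). Large-subunit proteins had 9 rises and 15 falls of 30 with a bacterial homologue (-0.42) and 6 rises and 8 falls of 20 without (-0.20). Under total-count scaling 2 members rose and 66 fell (19.6% and 68.8% of all genes), and 11 of the 22 rises were then called lower. The members' median stayed below that of all genes, by 0.36 under the authors' scaling and by 0.38 under total-count scaling. This held for the scarcer members only, in the split by level used above and under the authors' scaling. Members at or above that level had a median of 0.00, against -0.13 over all genes there. Members below it had a median of -0.56, against 0.11 over all genes there. Markers of other cell types moved over this step too, under the authors' scaling. All 7 macrophage markers (median 4.96) and all 7 Sertoli cell markers used (3.89) rose. So did the 3 Leydig cell markers used (2.63) and 6 of 7 peritubular and vascular markers (2.93). All 8 spermatocyte markers fell (-2.44), and of 6 spermatogonia markers 2 rose and 2 fell. The part of these cell types in the members' changes over the step was not tested.

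Mrps31, a mitochondria-specific small-subunit protein, fell most, with 45.1 and 62.0 in elongating WT libraries, against 279 and 292 in round WT libraries (log2 change -2.41, SE 0.20, adjusted p = 3.2e-08). Mrpl39 had 492 and 498 in elongating WT libraries, against 2170.4 and 2172 in round WT libraries (-2.13, SE 0.05, adjusted p = 5.4e-15). Mrpl1, the homologue of the bacterial protein that guides the outgoing tRNA, had 153 and 151 in elongating WT libraries, against 629 and 638 in round WT libraries (-2.05, SE 0.09, adjusted p = 5.7e-12). In all 3 the elongating values were far below the round ones. Mrpl32, whose protein is cut by the m-AAA protease on its way into the ribosome, had 108 and 123 in elongating WT libraries, against 458 and 488 in round WT libraries (-2.03). Mrps9 (-1.90), Mrpl20 (-1.86), Mrpl22 (-1.76) and Mrps14 (-1.72), all with bacterial homologues, complete the largest falls, and these 8 were called under every alternative run.

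Mrps36 rose most, with 1109.9 and 1126 in elongating WT libraries, against 307 and 318 in round WT libraries (1.84, SE 0.06, adjusted p = 5.2e-13). Mrps34, a mitochondria-specific small-subunit protein, had 388 and 345 in elongating WT libraries, against 109 and 101 in round WT libraries (1.79, SE 0.13, adjusted p = 6.1e-09). These are the only 2 rises that remained under total-count scaling, and both are uncertain as to source. Mrps34 shares 63.4% of its exon bases with Mapk8ip3 on the opposite strand and 37.0% with Nme3 on the same strand, and Mrps36 has 4 processed pseudogenes of 95.5 to 99.3% identity, the closest being Mrps36-ps1 (99.3% over 306 bases) and Mrps36-ps2 (99.0% over 309 bases).

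Mrpl49 (1.67), Mrpl15 (1.63), Mrpl47 (1.59), Mrpl40 (1.58), Mrpl9 (1.55) and Mrpl54 (1.37), all of the large subunit, rose under the authors' scaling and under scaling without the 50 most abundant genes, but not under total-count scaling. Mrpl49 had 153 and 154 in elongating WT libraries, against 47.1 and 48.4 in round WT libraries. Mrpl15 had 777 and 741 in elongating WT libraries, against 226 and 266 in round WT libraries. Neither gene's groups came near each other. Mrpl9 had 257 and 231 in elongating WT libraries, against 92.9 and 72.6 in round WT libraries, and 5.8% of its exon bases lie opposite those of Oaz3. Oaz3 is 1 of the 7 elongating spermatid markers, all of which rose over this step. The part of Oaz3 reads in the values of Mrpl9 was not tested. Of the 2 genes with a full CRE, Mrpl49 rose and Mrpl16 fell, with 101 and 102 in elongating WT libraries, against 176 and 184 in round WT libraries (-0.82, SE 0.13, adjusted p = 4.0e-05).

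**Figure D5:**
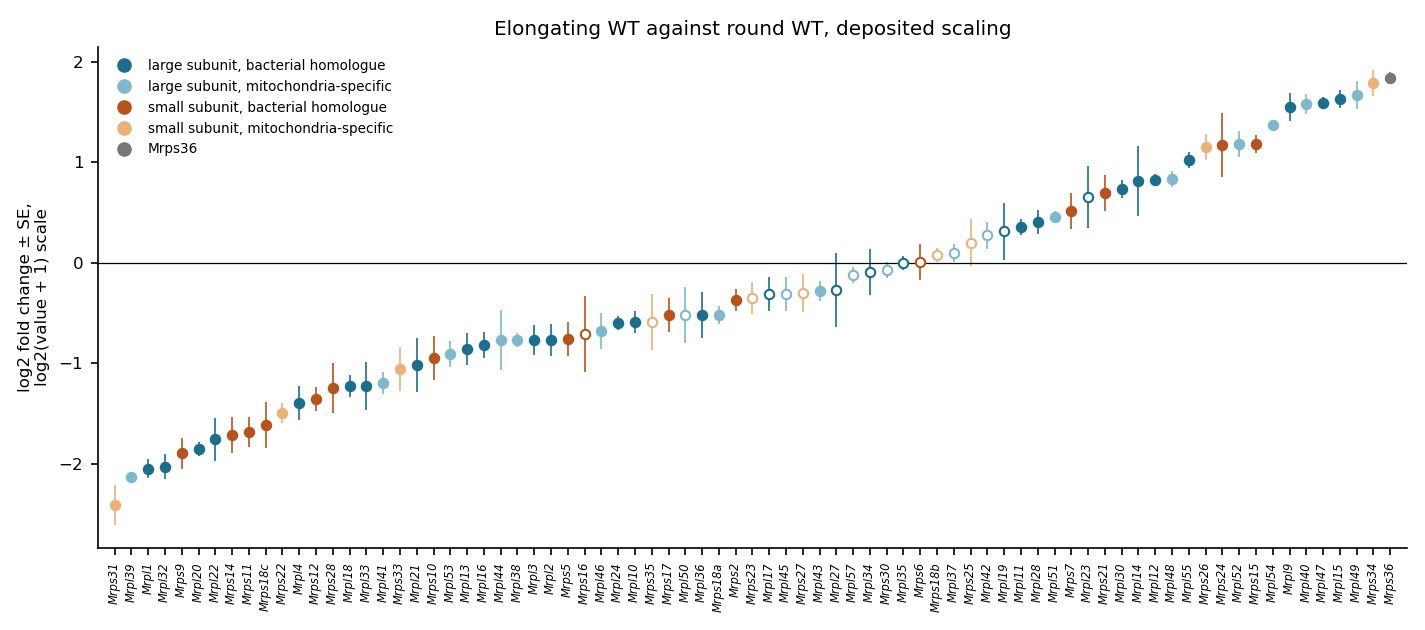
Log2 fold change of elongating WT against round WT for each of the 77 members with its SE, on the log2(value + 1) scale with the authors' size factors, ordered by size and coloured by subunit and ancestry. Values run from -2.41 for Mrps31 to 1.84 for Mrps36; under total-count scaling the median of all genes moves to -1.42 and only Mrps34 and Mrps36 stay as rises.

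The 3 Mrps18 paralogs, related to a single bacterial protein, took different courses over the step. Mrps18a, a large-subunit protein, had 231 and 219 in elongating WT libraries, against 327 and 319.6 in round WT libraries (-0.52, SE 0.09, adjusted p = 7.1e-05). Mrps18b had 605 and 598 in elongating WT libraries, against 552 and 583 in round WT libraries (0.08, SE 0.07, adjusted p = 0.26). Mrps18c, the closest to the bacterial form, had 23.2 and 24.5 in elongating WT libraries, against 73.8 and 77.5 in round WT libraries (-1.62, SE 0.23, adjusted p = 1.0e-05). Mrps18c did not pass in either knockout comparison (0.09 in elongating and -0.23 in round cells), where Mrps18b rose in both. Mrps18b has a processed pseudogene of 99.8% identity over 417 bases.

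In KO-labelled cells the same step gave 21 rises and 45 falls (42.6% and 41.8% of all genes), with a member median of -0.61 against 0.01 over all genes. Split by level as before, members at or above the median level had a median of -0.05, against -0.04 over all genes there. Members below it had a median of -0.92, against 0.06 over all genes there. Both steps share their libraries with the knockout comparisons, so values are given side by side. The log2 change over the step was -3.08 in KO-labelled and -2.41 in WT cells for Mrps31, -3.03 in KO-labelled and -2.13 in WT cells for Mrpl39, and -2.69 in KO-labelled and -1.25 in WT cells for Mrps28. Under the authors' scaling it was 2.05 in KO-labelled and 1.59 in WT cells for Mrpl47, and 1.24 in KO-labelled and 0.45 in WT cells for Mrpl51, and under total-count scaling Mrpl47 had no call in either step, whereas Mrpl51 was called lower in elongating cells in both, as it was under scaling without the 50 most abundant genes.

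Among the 6 ribosomal subunit genes with other symbols, 3 rose (50%, beside 27.3% of all genes) and 2 fell (33.3%, beside 27.7%) in elongating KO-labelled cells. In round KO-labelled cells 2 rose (33.3%, beside 19.4%) and none fell by limma (beside 12.6%). Dap3, a small-subunit protein first known from cell death, had 3095 and 3080.4 in elongating KO-labelled libraries, against 2549.9 and 2541 in elongating WT libraries (0.28, SE 0.04, adjusted p = 3.7e-05). In round cells it had 1537 and 1513 in KO-labelled libraries, against 1313 and 1357 in WT libraries (0.19, SE 0.04, adjusted p = 0.0021), a call lost under total-count scaling. Aurkaip1, a mitochondria-specific small-subunit protein, rose by 0.40 in elongating and 0.53 in round cells, and Ptcd3, a pentatricopeptide-repeat protein of the small subunit, rose by 0.35 in elongating cells. Under total-count scaling Dap3, Aurkaip1 and Ptcd3 were lower in elongating KO-labelled cells, by -0.28, -0.17 and -0.21. Chchd1 had 34.9 and 28.3 in elongating KO-labelled libraries, against 50.3 and 64.9 in elongating WT libraries (-0.84, SE 0.21, adjusted p = 0.0032). Ict1, which releases stalled chains, changed by -0.71 (adjusted p = 0.026), a call lost without elongating KO replicate 1, elongating WT replicate 1 or elongating WT replicate 2. Gadd45gip1 changed by -0.25 (adjusted p = 0.1) and was not called.

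Among factors that assemble the mitochondrial ribosome were knockout changes larger than that of any member, in Rnmtl1 at both stages and in Ngrn in elongating cells. Of 25 assembly factors 2 rose (8%, beside 27.3% of all genes) and 11 fell (44%, beside 27.7%) in elongating KO-labelled cells, with a median of -0.30. In round KO-labelled cells 3 rose (12%, beside 19.4%) and 3 fell (12%, beside 12.6%), with a median of -0.00. Rnmtl1, which methylates the large-subunit RNA, had 11.6 and 11.3 in elongating KO-labelled libraries, against 65.8 and 75.0 in elongating WT libraries (-2.51, SE 0.27, adjusted p = 1.4e-06). In round cells it had 22.3 and 13.0 in KO-labelled libraries, against 82.1 and 94.4 in WT libraries (-2.31, SE 0.27, adjusted p = 1.3e-05). At both stages the KO-labelled values lay far below WT, and both calls were kept under every alternative. Ngrn, needed in human cells for the large-subunit RNA, had 295 and 256 in elongating KO-labelled libraries, against 47.7 and 59.1 in elongating WT libraries (2.35, SE 0.18, adjusted p = 2.9e-08). In round cells it had 84.6 and 79.4 in KO-labelled libraries, against 45.2 and 62.4 in WT libraries (0.62, SE 0.18, adjusted p = 0.015), a call lost without round KO replicate 1, round KO replicate 2 or round WT replicate 1.

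Mterf3 (-1.55), which has a part in assembling the large subunit, and Mpv17l2 (-1.21) fell in elongating KO-labelled cells. Tfb1m, which methylates the small-subunit RNA, had 516 and 495 in round KO-labelled libraries, against 849 and 884 in round WT libraries (-0.78, SE 0.08, adjusted p = 5.1e-06). Rbfa, a maturation factor of the small subunit, had 34.3 and 33.2 in round KO-labelled libraries, against 72.5 and 79.9 in round WT libraries (-1.15, SE 0.16, adjusted p = 7.4e-05). Both groups were tight, and both falls were called under every alternative. The call of Mpv17l2 ended without elongating KO replicate 1, elongating WT replicate 1 or elongating WT replicate 2.

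Of 16 translation factors 3 rose (18.8%, beside 27.3% of all genes) and 5 fell (31.2%, beside 27.7%) in elongating KO-labelled cells. In round KO-labelled cells 5 rose (31.2%, beside 19.4%) and none fell by limma (beside 12.6%), where the median was 0.11. Tufm, the mitochondrial elongation factor that brings aminoacyl-tRNA to the ribosome, had 815 and 769 in elongating KO-labelled libraries, against 394 and 444 in elongating WT libraries (0.92, SE 0.07, adjusted p = 3.7e-08). In round cells it had 628 and 604 in KO-labelled libraries, against 414 and 416 in WT libraries (0.57, SE 0.07, adjusted p = 2.5e-05). Tufm was the 1 factor on this list with a rise called under every alternative at both stages. Lrpprc (0.48), Oxa1l (0.47) and Mtif3 (0.46) also rose in round KO-labelled cells, and Taco1 (-0.96), Mtrf1 (-0.94) and Mtfmt (-0.78) fell in elongating KO-labelled cells. The values of these 3 lay between 7.76 and 31.7 in the elongating libraries. The calls of Lrpprc and Oxa1l ended without any 1 round library, that of Mtif3 without round KO replicate 2, that of Taco1 without round WT replicate 2, elongating KO replicate 1 or elongating WT replicate 2, and that of Mtfmt without any 1 library except elongating KO replicate 2.

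Of 16 tested genes that copy, transcribe or process mitochondrial DNA and RNA, 4 rose and 4 fell in elongating KO-labelled cells (25% each, beside 27.3% and 27.7% of all genes). In round KO-labelled cells 3 rose (18.8%, beside 19.4%) and 1 fell (6.25%, beside 12.6%). The falls in elongating cells were those of Mgme1 (-1.46), a nuclease of mitochondrial DNA, Ssbp1 (-0.92), its single-strand binding protein, Supv3l1 (-0.91), a helicase of RNA decay, and Hsd17b10 (-0.73), a subunit of mitochondrial RNase P. Polg, the polymerase of mitochondrial DNA, had 1814 and 1779.9 in round KO-labelled libraries, against 1219 and 1208 in round WT libraries (0.57, SE 0.05, adjusted p = 2.0e-06). Elac2 (0.35) and Polrmt (0.26) rose and Tfam (-0.17), the packaging protein of mitochondrial DNA, fell in round KO-labelled cells. Of these round calls only that of Polg was kept without each round library, and in elongating cells those of Mgme1 and Supv3l1 were kept without each library, whereas those of Ssbp1 and Hsd17b10 ended without 6 and 7 of the 8 libraries, one at a time.

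Related families are given for comparison, and the differences between families were not tested. Of 77 respiratory chain and ATP synthase genes 16 rose (20.8%, beside 27.3% of all genes) and 29 fell (37.7%, beside 27.7%) in elongating KO-labelled cells. In round KO-labelled cells 24 rose (31.2%, beside 19.4%) and 4 fell (5.19%, beside 12.6%), and in elongating WT against round WT cells 25 rose (32.5%, beside 41.7%) and 38 fell (49.4%, beside 40.2%), with a median of -0.19. Of 80 cytosolic ribosomal protein genes tested, 40 rose (50%, beside 27.3%) and 27 fell (33.8%, beside 27.7%) in elongating KO-labelled cells. In round KO-labelled cells 33 rose (41.2%, beside 19.4%) and 5 fell (6.25%, beside 12.6%), and in elongating WT against round WT cells 65 rose (81.2%, beside 41.7%) and 9 fell (11.2%, beside 40.2%), with a median of 0.88 under the authors' scaling.

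Sharing of reads limits some of these values. Of the 77 members, 19 have a processed pseudogene of at least 95% identity over at least 200 bases, and 17 share more than 10% of their exon bases with another gene. Mrps25 shares 69.8% with Nr2c2 and Mrpl53 88.0% with Gm42688, so the levels of these 2 are uncertain. How the authors' counting treated strand and ambiguous reads is not known.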

How the data were processed

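RNA of 8 spermatid libraries was measured by poly A RNA-seq with a TruSeq v2 kit, per the labels' protocols. The submitters' processing notes name DESeq 1.16.0, HTSeq 0.6.0, TopHat2 2.0.10 and CASAVA 1.8.2, and the builds mm10 and GRCm38, without their roles, a strand setting or an annotation. Deposited by the authors was a normalised signal per gene, which by its steps is a count divided by a size factor. Whole reads were recovered for 100.0% of values (tolerance 1e-06), 17190962 to 23526694 per library. Size factors were 0.516 and 0.530 in elongating KO-labelled, 0.776 and 0.693 in elongating WT, 1.57 and 1.77 in round KO-labelled and 1.57 and 1.65 in round WT libraries.

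Genes at 10 or above in at least 2 libraries (15685) were tested with limma 3.58.1 (R 4.3.3) with a trend on log2(value + 1), which understates changes of low genes. All 8 libraries entered 1 model of 4 group means (4 residual degrees of freedom), with two-sided Benjamini-Hochberg adjusted p under 0.05, where rose and fell mean called in the group named first. The script was tested on simulated data. Alternatives were other pseudocounts, filters and scalings, edgeR 4.0.16 and DESeq2 1.42.0 on the recovered reads, the 4 libraries of a contrast alone, a replicate block and leaving out each library. Libraries of a group differed by more than sampling noise (chi-square per gene 1.37 to 2.31), but the labels name no separate animals for them; p-values then reflect no more than the spread among these samples, which may be technical.

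The members and the gene lists were chosen with earlier results of these data known. Named are the 8 largest called rises and falls of each knockout comparison and of the WT step, the 5 largest differences of effect each way, the 5 highest and lowest levels per kilobase, the Mrps18 paralogs, the 6 other subunits and the 4 largest changes of each factor list; genes named for other reasons, such as Mrpl39 in the knockout comparisons, were chosen after their values were seen.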

Additional observations from a re-analysis of the deposited data

Results flagged for a closer look

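The knockout effect differed between the stages, by the limma test of elongating minus round effect on the log2 scale, in the following members with the largest differences. Mrpl51 differed by 0.79 (SE 0.09), with an effect of 0.63 in elongating and -0.15 in round cells, and Mrpl9 by 0.55 (SE 0.20), with 0.37 and -0.18. Mrpl47 differed by 0.46 (SE 0.09), with 0.78 and 0.32, Mrpl40 by 0.43 (SE 0.14), with 0.52 and 0.09, and Mrps15 by 0.41 (SE 0.13), with 0.34 and -0.08. Of these 5, only Mrpl51 kept its call under total-count scaling. The calls of Mrpl9, Mrpl40 and Mrps15 also ended without round KO replicate 1 or elongating WT replicate 1. Mrpl9 shares 5.8% of its exon bases with Oaz3 on the opposite strand, an elongating spermatid marker that also rose in elongating KO-labelled cells.

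In the other direction Mrps24 differed by -1.61 (SE 0.45), with -1.24 in elongating and 0.37 in round cells, and Mrpl36 by -1.58 (SE 0.32), with -1.32 and 0.26. Mrps28 differed by -1.44 (SE 0.35), with -1.36 and 0.07, Mrps11, a small-subunit protein with a bacterial homologue, by -1.10 (SE 0.22), with -0.69 and 0.41, and Mrpl4 by -0.96 (SE 0.24), with -0.87 and 0.09. These 5 are scarce in elongating cells, with 7 to 32 reads in each KO-labelled library. The call of Mrps24 ended without round KO replicate 2, round WT replicate 1 or elongating WT replicate 1, and those of the other 4 were kept under every alternative run.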

How the results depend on the processing

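The scaling of libraries moved the counts most. Under total-count scaling and under scaling without the 50 most abundant genes, round KO-labelled against WT gave 9 higher and 7 lower under both. Elongating KO-labelled against WT gave 2 higher under both, 63 and 60 lower, and medians of -0.65 and -0.59. The difference of the effects gave 1 higher under both, 51 and 45 lower, and medians of -0.65 and -0.59. Elongating WT against round WT gave 2 and 8 higher, 66 and 61 lower, and medians of -1.80 and -1.39. Elongating KO-labelled against round KO-labelled gave 1 and 8 higher, 71 lower under the first, and medians of -2.54 and -2.07. These scalings move all genes together, so the member median relative to all genes stayed within 0.05 of its value.

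Of the members that rose, 9 and 8 of 13 changed sign under these scalings in elongating KO-labelled against WT cells (5 and 3 called lower), none of 15 in round cells, 6 and 4 of 8 for the difference (none called lower by limma), 15 and 10 of 22 for the WT step (11 and 7 called lower) and 16 and 11 of 21 for the KO-labelled step (15 and 11 called lower). Among the genes named by rule for each comparison, the same scalings reversed, in elongating cells, Aurkaip1 (-0.17 and -0.11), Dap3 (-0.28 and -0.23), Mrpl37 (-0.16 and -0.10), Mrpl55 (-0.19 and -0.13), Mrps18a (-0.34 and -0.28), Mrps18b (-0.11 and -0.05) and Ptcd3 (-0.21 and -0.15), and total-count scaling reversed Mrpl40 (-0.04). For the difference of effects it reversed the named Mrpl40 (-0.04), Mrpl47 (-0.01) and Mrps15 (-0.06, and -0.00 without the 50 genes), and for the WT step the named Mrpl54 (-0.10).

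DESeq2 gave 12 lower in elongating cells. Round falls numbered 9 with edgeR on the deposited size factors, 8 with edgeR and TMM, and 8 in the fit of 4 libraries; the cause was not tested. Leaving out 1 library gave 7 to 18 higher and 1 to 5 lower in round cells, 10 to 13 higher and 16 to 23 lower in elongating cells, and 5 to 8 higher and 10 to 21 lower for the difference. Same-numbered libraries did not deviate together (correlations of -0.015 to 0.031), so no pairing by number was visible in the values. This cannot exclude that same-numbered samples came from the same testes. The fit with a replicate block gave 13 higher and 23 lower in elongating cells, 14 and 4 in round cells, 8 and 16 for the difference, and 23 and 37 for the WT step. Of 65 single-gene results, 32 kept direction and call in every setting; of 1286 values compared, 105 lost the call and 20 reversed. Depth limits the scarce members, with a median of 50 to 84 reads a member in elongating libraries.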
